A study of Homo sapiens with 3 samples.

Results

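The genes described here are 10 established transcriptional targets of YAP and TAZ: CCN2, CCN1, ANKRD1, AMOTL2, AXL, CRIM1, F3, PTPN14, DOCK5 and IGFBP3. They were taken as every probe set of the array whose only gene symbol is one of these names, which gave 25 probe sets, out of 41091 probe sets with exactly 1 symbol and 19775 genes. No probe set with several symbols included a member. CCN1, CCN2 and the other names stand in the platform's annotation as written here, and the update of symbols left them as they were.

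The series holds 3 expression arrays of a human colorectal cancer line, 1 array per group. The LATS2 array is from cells infected with a virus carrying full-length LATS2, the LATS2N array from cells infected with a virus for its residues 1 to 625, and the control array from cells infected with an empty-vector virus. All 3 groups share viral infection and culture medium with 10% serum. The sample labels name the line SW620, while the series design text names SW480 and calls the expression stable; whether each line was a clone or a pool is not given there, nor which promoter drives the construct. Because each group has 1 array, there is no replicate, no spread between cultures and no test in what follows, and a bulk array cannot tell fewer cells of a kind from less RNA per cell.

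LATS2 is a serine/threonine kinase at the end of the Hippo kinase cascade. It phosphorylates the coactivators YAP and TAZ, which holds them out of the nucleus or sends them to degradation. In the nucleus YAP and TAZ do not bind DNA themselves but sit on TEAD transcription factors, often beside AP-1, and raise genes of matrix signalling, adhesion, growth and feedback on the pathway itself. The kinase domain of LATS2 lies in its C-terminal part, beyond the fragment carried by LATS2N.

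Promoter sequences of 7 of the 10 members, with 9 annotated start sites, were taken from RefSeq on GRCh38.p14; those of CCN1, CRIM1 and DOCK5 were not used here. The 250 bases before each start were searched on both strands for GGAATG, the core of the element that TEAD factors bind, and for TGANTCA, the AP-1 element. The TEAD motif was found before 5 of the 9 start sites, those of CCN2, ANKRD1, AMOTL2, AXL and PTPN14, and in 11.9% of the 35116 windows of the same length in that table. The AP-1 motif was found for 2 members, ANKRD1 and F3, and in 6.57% of all windows. No matches of the TEAD and AP-1 motifs overlapped in these windows. CCN2 and ANKRD1 are textbook TEAD targets, so these shares were not tested, and a match is a description of the letters, not of binding in these cells. The 4 windows shown are those of CCN2 and ANKRD1, which hold more than 1 TEAD motif, of AMOTL2, with a single TEAD motif close to the start, and of F3, with AP-1 motifs and no TEAD motif. Motif matches are in capitals, and CATTCC is GGAATG read on the other strand.
CCN2, chr6:131951373-131951622, minus strand: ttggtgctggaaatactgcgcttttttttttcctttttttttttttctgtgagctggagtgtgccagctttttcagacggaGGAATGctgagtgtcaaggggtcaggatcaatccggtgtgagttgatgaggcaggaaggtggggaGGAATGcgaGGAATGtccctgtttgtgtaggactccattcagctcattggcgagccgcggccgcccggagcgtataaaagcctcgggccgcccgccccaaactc
ANKRD1, chr10:90921088-90921337, minus strand: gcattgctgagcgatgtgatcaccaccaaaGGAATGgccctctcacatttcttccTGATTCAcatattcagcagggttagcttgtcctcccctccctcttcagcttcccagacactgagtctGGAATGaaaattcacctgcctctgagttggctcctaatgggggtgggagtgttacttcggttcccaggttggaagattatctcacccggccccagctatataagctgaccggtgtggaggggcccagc
AMOTL2, second start, chr3:134374448-134374697, minus strand: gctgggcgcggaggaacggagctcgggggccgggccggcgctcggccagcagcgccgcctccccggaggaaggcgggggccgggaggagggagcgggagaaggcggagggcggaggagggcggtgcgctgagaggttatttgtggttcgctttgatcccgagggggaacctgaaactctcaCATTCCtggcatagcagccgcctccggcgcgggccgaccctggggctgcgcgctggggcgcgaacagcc
F3, chr1:94541760-94542009, minus strand: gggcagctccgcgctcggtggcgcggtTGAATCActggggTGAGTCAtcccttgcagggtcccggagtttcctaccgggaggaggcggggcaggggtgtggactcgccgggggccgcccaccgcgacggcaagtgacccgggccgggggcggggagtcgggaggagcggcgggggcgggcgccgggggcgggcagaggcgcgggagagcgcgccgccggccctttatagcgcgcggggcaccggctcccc
CCN2 holds 3 TEAD motifs, which begin 169, 104 and 95 bases before its start, a number reached by 0.0826% of all windows. ANKRD1 holds 2 TEAD motifs, beginning 220 and 128 bases before its start, with an AP-1 motif between them. In F3 the 2 AP-1 motifs begin 223 and 210 bases before the start.

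**Figure D1:**
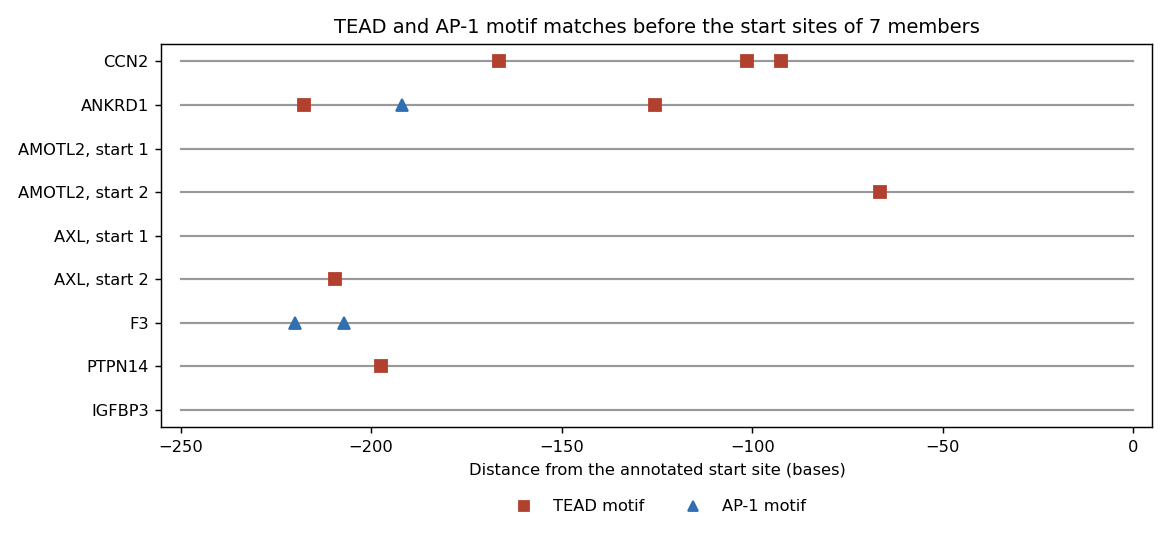
Positions of TEAD (squares) and AP-1 (triangles) motif matches in the 250 bases before 9 start sites of 7 members; the x axis is the distance from the start site in bases. CCN2 carries 3 TEAD motifs and F3 2 AP-1 motifs, while IGFBP3 and the first starts of AMOTL2 and AXL carry neither.

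Signals are deposited intensities on a linear scale. A floor of 50.5, which is the median of all signals on the 3 arrays, replaced any lower signal before log2 ratios were taken. The leading probe set of a gene, used where 1 value per gene is given, is the one whose log2 signal averaged highest. For genes other than the members and LATS2 only the leading probe set is given, and other probe sets of such a gene may differ. Calls of higher or lower rest on size alone, at 2-fold or more. The error given with a log2 ratio is the robust SD between probe sets of the same gene at that signal, which covers noise within the arrays and not differences between cultures. Of the 10 members, 8 were at or above the floor on all 3 arrays, CCN2 was above it on the LATS2 array only, and ANKRD1 was below it on every array. Only PTPN14 and DOCK5 reached a signal of 500 on any array.

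The arrays carried marks of colorectal epithelium: of 10 listed markers, 9 with LATS2, 10 with LATS2N and 9 with empty vector were above the floor, with EPCAM, KRT8, KRT18, CDH1, VIL1 and ASCL2 each above 500 on every array, and LGR5 above 500 on the control array. Of 6 fibroblast markers, LUM and COL1A1 were above 500 on at least 1 array, and COL1A1 read 596 on the LATS2 array, 607 on the LATS2N array and 325 on the control array, while COL1A2, COL3A1 and PDGFRB were below the floor throughout. The signals of the 6 summed to 2524 on the LATS2 array, 2357 on the LATS2N array and 1937 on the control array, the order of CCN1. Of the 3 that reached the floor, only LUM had that order, with 1884 on the LATS2 array, 1635 on the LATS2N array and 1519 on the control array. DCN was lowest on the LATS2 array, at 23.5 and below the floor, with 62.6 on the LATS2N array and 57.3 on the control array. The part of the fibroblast markers in the CCN1 and CCN2 values was not tested. The leukocyte marker PTPRC and the endothelial markers CDH5 and VWF were below the floor throughout, and PECAM1 was the only one of 5 endothelial and leukocyte markers above it. The overexpressed gene itself showed no raised signal above the floor: 1 probe set read 377 with LATS2, 409 with LATS2N and 385 with empty vector, another read 219 with LATS2, 219 with LATS2N and 206 with empty vector, and its other probe sets stayed under the floor throughout. The stretch of transcript these probe sets read was not analysed here, so they do not check the labels.

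Across the 3 arrays the targets did not move together. With full-length LATS2, CCN1 was called higher than control, 2.04-fold, and it was the only member past 2-fold in any comparison. By leading probe set, CCN2 was also brightest on the LATS2 array, whereas F3, AXL and IGFBP3 were dimmest there. AMOTL2 and CRIM1 were nearly level, and PTPN14 and DOCK5 were dimmest on the LATS2N array. Other probe sets of CCN1, AXL, CRIM1, PTPN14 and DOCK5 did not all follow the leading ones.

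CCN1 and CCN2 encode secreted matricellular proteins of one family, which bind integrins and are classic targets of YAP and TAZ. The leading CCN1 probe set, 201289_at, read 136 on the LATS2 array, 97.6 on the LATS2N array and 66.8 on the control array. The signal was thus highest with full-length LATS2 and lowest with empty vector. The log2 ratio against control was 1.03 ± 0.48 for LATS2 and 0.55 ± 0.47 for LATS2N, and LATS2 against LATS2N was 0.48 ± 0.52. The second CCN1 probe set, 210764_s_at, did not show this order, with 59.4 on the LATS2 array, 46.9 on the LATS2N array and 58.1 on the control array. With the median over the probe sets the CCN1 log2 ratio of LATS2 against control was 0.53, short of the call.

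CCN2, measured by 209101_at alone, read 66.4 on the LATS2 array, 38.8 on the LATS2N array and 28.6 on the control array. Only the LATS2 signal passed the floor. With the other arrays set at the floor, the LATS2 signal was 1.32-fold above each. This bound was 0.83 SDs between probe sets against control and 0.76 SDs against LATS2N, so it is not a firm minimum. Without a floor the log2 ratio was 1.21 for LATS2 against control and 0.44 for LATS2N against control, but those signals lie where the array has no measured precision here. ANKRD1, an ankyrin-repeat protein of muscle nuclei and sarcomeres that is widely used as a YAP reporter gene, read 19.5 on the LATS2 array, 1.76 on the LATS2N array and 9.15 on the control array. These signals have no order above the floor, and no fold is given.

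IGFBP3 encodes a secreted carrier that binds insulin-like growth factors. Its leading probe set, 210095_s_at, read 80.0 on the LATS2 array, 111 on the LATS2N array and 115 on the control array. The LATS2 array was the low one and the others were close, with a log2 ratio against control of -0.53 ± 0.48 for LATS2 and -0.06 ± 0.35 for LATS2N. The other probe set, 212143_s_at, was below the floor on every array, at 7.28 on the LATS2 array, 14.7 on the LATS2N array and 30.6 on the control array. Among the secreted members, the leading probe set of IGFBP3 was opposite in sign to those of CCN1 and CCN2 in LATS2 against control. The difference was 1.10 SDs between probe sets for IGFBP3 and 0.83 SDs for CCN2, and the second CCN1 probe set gave a log2 ratio of 0.03. With 1 array per group, whether these signs differ beyond noise was not tested.

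**Figure D2:**
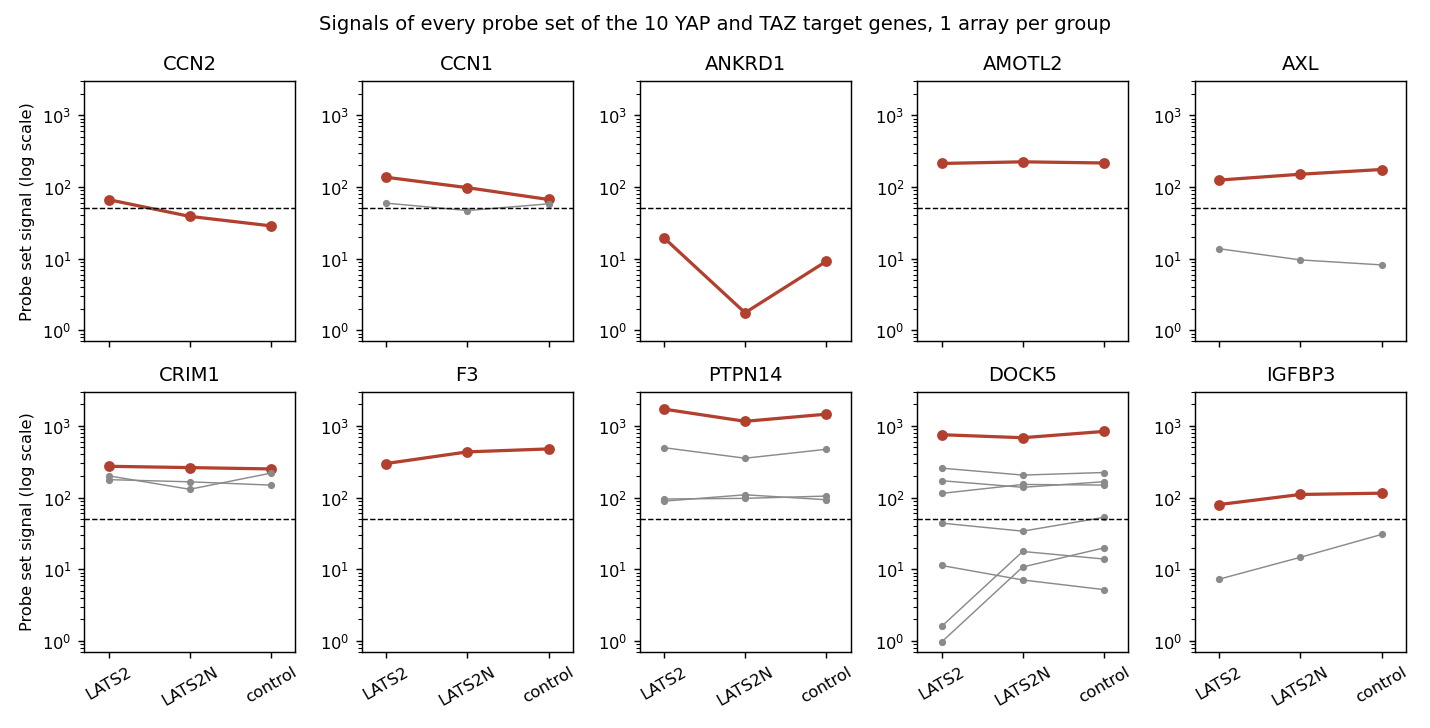
Signal of every probe set of the 10 members on the LATS2, LATS2N and control arrays (log axis, 1 array per group). The thick line is the probe set that represents the gene, thin lines are its other probe sets and the dashed line is the floor of 50.5. The thick lines of CCN1 and CCN2 descend and those of F3, AXL and IGFBP3 ascend along the same axis. CCN2 is above the floor on the LATS2 array only. The thin lines of CCN1 and AXL do not follow their thick ones.

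Of the members at the cell surface, F3 had the largest difference against control among leading probe sets. F3 is tissue factor, the membrane receptor that starts blood coagulation. Its single probe set, 204363_at, read 299 on the LATS2 array, 434 on the LATS2N array and 477 on the control array. The LATS2 array stood below the others, 1.60-fold lower than control, with a log2 ratio of -0.68 ± 0.27, and LATS2 against LATS2N was -0.54 ± 0.26. LATS2N lay close to control, at -0.14 ± 0.25.

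AXL is a receptor tyrosine kinase whose ligand is GAS6. Its leading probe set, 202686_s_at, read 125 on the LATS2 array, 150.3 on the LATS2N array and 175 on the control array. The order was the same as for F3, but the ratio of LATS2 against control, -0.49 ± 0.36, was under 2 SDs between probe sets. The other AXL probe set, 202685_s_at, was at 13.7 on the LATS2 array, 9.59 on the LATS2N array and 8.17 on the control array, all below the floor.

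CRIM1, a transmembrane protein that binds bone morphogenetic proteins, had 3 probe sets above the floor. The leading one, 228496_s_at, read 273 on the LATS2 array, 262 on the LATS2N array and 251 on the control array, and 202552_s_at read 178 on the LATS2 array, 166 on the LATS2N array and 149 on the control array. These 2 differ little between arrays, with log2 ratios of LATS2 against control of 0.12 ± 0.27 and 0.25 ± 0.36. The third, 202551_s_at, read 201 on the LATS2 array, 131 on the LATS2N array and 219 on the control array. It alone was low on the LATS2N array, with a log2 ratio against control of -0.75 ± 0.35, so the CRIM1 probe sets disagreed there.

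AMOTL2 and PTPN14 act back on the pathway. AMOTL2 is an angiomotin family scaffold that binds YAP and keeps it at junctions and actin. Its probe set, 203002_at, read 212 on the LATS2 array, 224 on the LATS2N array and 216 on the control array. Its readings were closer together than those of any other leading probe set of a member above the floor, with log2 ratios of -0.02 ± 0.27 in LATS2 against control, 0.05 ± 0.25 for LATS2N against control and -0.08 ± 0.26 for LATS2 against LATS2N.

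PTPN14 is a non-receptor tyrosine phosphatase that binds YAP and restrains it. Its leading probe set, 226282_at, read 1716 on the LATS2 array, 1158 on the LATS2N array and 1457 on the control array. The LATS2N array was the low one: LATS2N against control was -0.33 ± 0.16, and LATS2 against LATS2N was 0.57 ± 0.16, a 1.48-fold difference and the largest of any member relative to the spread between probe sets, at 3.47 SDs. A second probe set, 244533_at, gave the same order, with 497 on the LATS2 array, 354 on the LATS2N array and 472 on the control array. The remaining pair did not: 205503_at read 95.6 on the LATS2 array, 97.5 on the LATS2N array and 105 on the control array, and 242321_at read 89.2 on the LATS2 array, 109 on the LATS2N array and 93.4 on the control array. With the median over all 4 probe sets, LATS2 against LATS2N was 0.15.

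DOCK5, a guanine nucleotide exchange factor for the GTPase Rac, had 8 probe sets, of which 4 were above the floor on all arrays. The leading one, 230263_s_at, read 753 on the LATS2 array, 684 on the LATS2N array and 837 on the control array. Against control, LATS2 gave a log2 ratio of -0.15 ± 0.19 and LATS2N of -0.29 ± 0.16. For LATS2 against control the 4 probe sets ranged between -0.39 and 0.20, with 2 above and 2 below 0. For LATS2N against control they ranged between -0.29 and 0.03, with 3 below 0. One further probe set, 1569590_at, passed the floor on the control array only, and the other 3 were below it throughout.

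**Figure D3:**
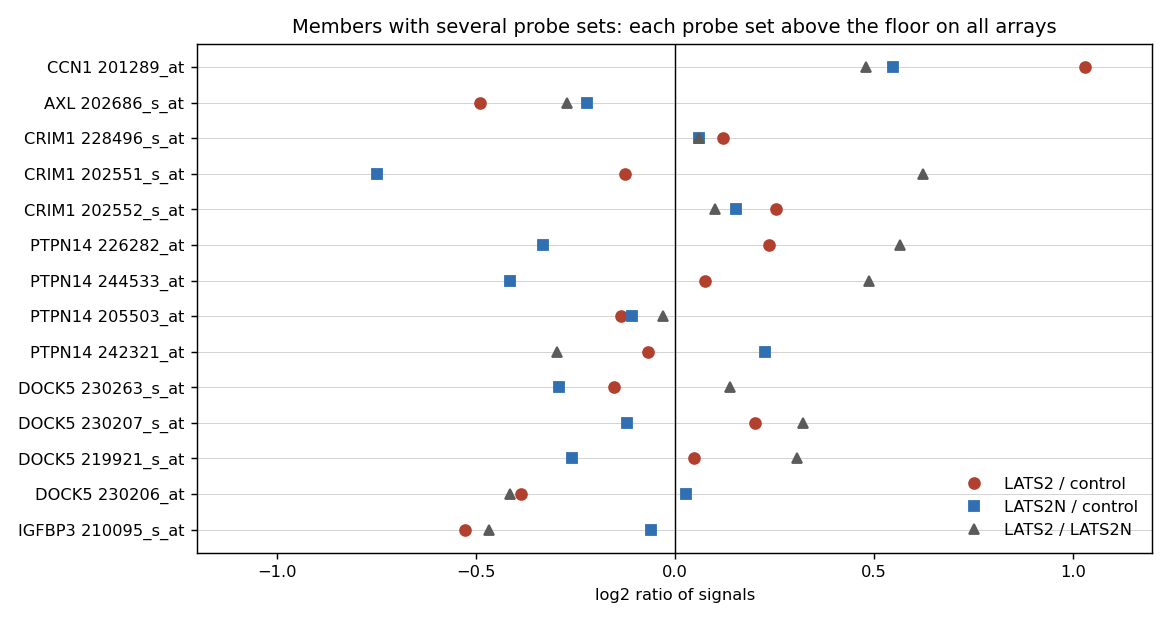
Log2 ratios of signals for the probe sets of CCN1, AXL, CRIM1, PTPN14, DOCK5 and IGFBP3 that were above the floor on all 3 arrays (circles LATS2 / control, squares LATS2N / control, triangles LATS2 / LATS2N). In the comparisons with LATS2N, the PTPN14 probe sets 226282_at and 244533_at lie together, and 205503_at and 242321_at lie apart from them. For LATS2 / control the 4 PTPN14 probe sets spread between -0.13 and 0.24 without such a grouping.

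For LATS2 against control, 1 of the 9 members that reached the floor was called higher, CCN1, and none lower, where 0.963% of the 13186 genes that reached the floor were called higher and 0.842% lower. The members' log2 ratios ran between -0.68 for F3 and 1.03 for CCN1, with 4 above and 5 below 0, and their median was -0.02, beside 0.03 over all genes. At 1.5-fold, CCN1 was higher and F3 lower, where 5.85% of all genes were higher and 4.41% lower. At 2 SDs between probe sets, a limit chosen after the values were seen, the same 2 of 9 members passed, beside 12.9% of all genes. The CCN1 call ended when all ratios were centred on the median gene, when the median over probe sets was used and at a floor at the 75th percentile.

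For LATS2N against control, none of the 8 members that reached the floor was called at 2-fold, where 0.944% of 13245 genes were called higher and 0.566% lower. Their log2 ratios ran between -0.33 for PTPN14 and 0.55 for CCN1, with 3 above and 5 below 0, and a median of -0.10, beside 0.02 over all genes. At 2 SDs between probe sets 1 member passed, PTPN14, beside 13.3% of all genes. This comparison and the first use the same control array.

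LATS2 against LATS2N leaves the control array out and sets the full-length protein beside the fragment that ends before the kinase domain. None of 9 members was called, where 0.592% of 13175 genes were higher and 1% lower. The log2 ratios ran between -0.54 for F3 and 0.57 for PTPN14, with 5 above and 4 below 0, and a median of 0.06, beside 0.01 over all genes. At 2 SDs between probe sets F3 and PTPN14 passed, beside 13.9% of all genes.

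**Figure D4:**
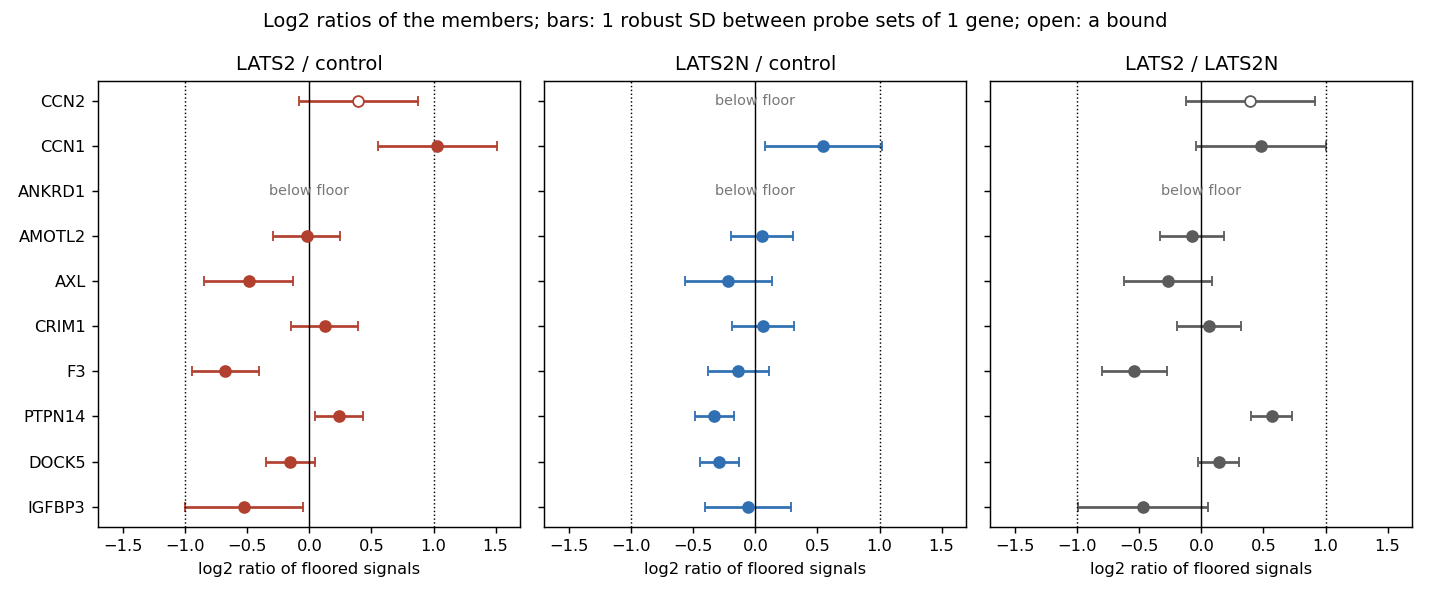
Log2 ratios of the leading probe set of each member in the 3 comparisons, with bars of 1 robust SD between probe sets of a gene at that signal; dotted lines mark 2-fold and open symbols are bounds. CCN1 at 1.03 is the only point past 2-fold. In LATS2 / control the bars of CCN1, F3, AXL, IGFBP3 and PTPN14 do not reach 0, and those of the other members with a point cross it. In each of the other comparisons most bars cross 0.

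The order of the 3 arrays divided the 8 members that were above the floor on all of them. AXL, F3 and IGFBP3 ran control above LATS2N above LATS2, an order shared by 14.9% of the 11534 genes that passed the floor on each array. In all 3 of these members LATS2N and control differed by less than 1 SD between probe sets. CCN1 and CRIM1 ran LATS2 above LATS2N above control, as did 22.0% of those genes, though the CRIM1 differences were under 1 SD. PTPN14, DOCK5 and AMOTL2 each had a different order, shared by 17.8%, 13.4% and 15.6% of those genes. The AMOTL2 differences were under 1 SD, as were those of DOCK5 except LATS2N against control. The 18S ribosomal RNA probe sets also ran control above LATS2N above LATS2, with median signals of 6632 on the LATS2 array, 10612 on the LATS2N array and 17278 on the control array over 3 probe sets; their part in the order of AXL, F3 and IGFBP3 was not tested. Of the 10 colorectal epithelial markers, 4 ran in that order as well: CDH1, VIL1, LGR5 and ASCL2. CDH1, the adhesion molecule E-cadherin, had 2792 on the LATS2 array, 3567 on the LATS2N array and 4421 on the control array. VIL1, the actin-bundling protein of microvilli, had 3948 on the LATS2 array, 4666 on the LATS2N array and 5013 on the control array. LGR5, a receptor known as a marker of intestinal stem cells, had 331 on the LATS2 array, 402 on the LATS2N array and 569 on the control array. The log2 ratio of LATS2 against control was -0.66 for CDH1, -0.34 for VIL1 and -0.78 for LGR5, each past 2 SDs between probe sets, and -0.03 for ASCL2. EPCAM, KRT8 and KRT18 were at 0.17, 0.16 and 0.13, and the summed signal of all 10 markers was 108414 on the LATS2 array, 108087 on the LATS2N array and 101486 on the control array. The part of these markers in the order of AXL, F3 and IGFBP3 was not tested.

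CCN1 had the largest log2 ratio of LATS2 against control among the members, so the genes with the nearest pair of ratios against control were looked up among 1463 genes of similar mean signal. The nearest were GMPR, with log2 ratios of 1.01 in LATS2 and 0.59 in LATS2N, PLEKHM3, with 0.97 in LATS2 and 0.52 in LATS2N, and HAGLROS, with 1.09 in LATS2 and 0.52 in LATS2N. The likeness rests on 2 ratios that share the control array and on dim signals, of 160 on the LATS2 array for PLEKHM3 and less for the other 2.

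Other targets of YAP and TAZ also gave no common direction. Of 19 listed genes 16 had a probe set with 1 symbol, and 11 reached the floor in LATS2 against control, with a median log2 ratio of -0.03 and 5 above and 6 below 0. None was called in any comparison. THBS1, a matricellular protein, has 7 probe sets. Its leading one read 83.2 on the LATS2 array, 42.9 on the LATS2N array and 35.4 on the control array. Like CCN2 it passed the floor on the LATS2 array only. Its bound against control was 1.65-fold, at 1.51 SDs between probe sets. FJX1, a secreted regulator of planar polarity, read 761 on the LATS2 array, 900 on the LATS2N array and 1079 on the control array, with a log2 ratio of -0.50 for LATS2 against control. CAV1, the coat protein of caveolae, was high on the LATS2N array alone, at 2179 on the LATS2 array, 3247 on the LATS2N array and 2173 on the control array. MYOF, ASAP1, FOXF2, GADD45A, AJUBA and BIRC5, all above 500, had log2 ratios between -0.14 for ASAP1 and 0.20 for GADD45A in LATS2 against control. For LATS2N against control the list had a median of -0.00091 over 10 genes, with 5 above and 5 below 0.

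The coactivators and TEAD factors through which these targets are read were present. YAP1 read 5591 on the LATS2 array, 5701 on the LATS2N array and 6068 on the control array, and WWTR1, the gene of TAZ, read 304 on the LATS2 array, 329 on the LATS2N array and 360 on the control array. TEAD1 and TEAD4 had log2 ratios of LATS2 against control of 0.02 and -0.04. VGLL4, which competes with YAP for TEAD, read 2655 on the LATS2 array, 3404 on the LATS2N array and 3299 on the control array, a log2 ratio of -0.31 for LATS2 against control. TEAD3 was the 1 called gene of the list, 2.05-fold higher on the LATS2 array, at 160 on the LATS2 array, 93.3 on the LATS2N array and 77.8 on the control array. Over 9 genes of this list that reached the floor, the median log2 ratio was -0.12 in LATS2 and -0.13 in LATS2N, each against control. These differences concern transcripts and say nothing about the phosphorylation of YAP and TAZ, which arrays do not measure.

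Of 13 Hippo kinases, scaffolds and angiomotins, 11 reached the floor in each comparison against control, and none was called. STK4, an upstream kinase of LATS2, read 2855 on the LATS2 array, 2178 on the LATS2N array and 2306 on the control array. STK3, its close relative, read 1156 on the LATS2 array, 1251 on the LATS2N array and 998 on the control array. SAV1, MOB1A, MOB1B, NF2, WWC1, TAOK1 and MAP4K4 lay between -0.27 for MAP4K4 and 0.17 for WWC1 in LATS2 against control. Against control, the list median was 0.06 with LATS2 and -0.08 with LATS2N. The angiomotins AMOT and AMOTL1 were below the floor on every array, so AMOTL2 was the only member of that family above it.

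**Figure D5:**
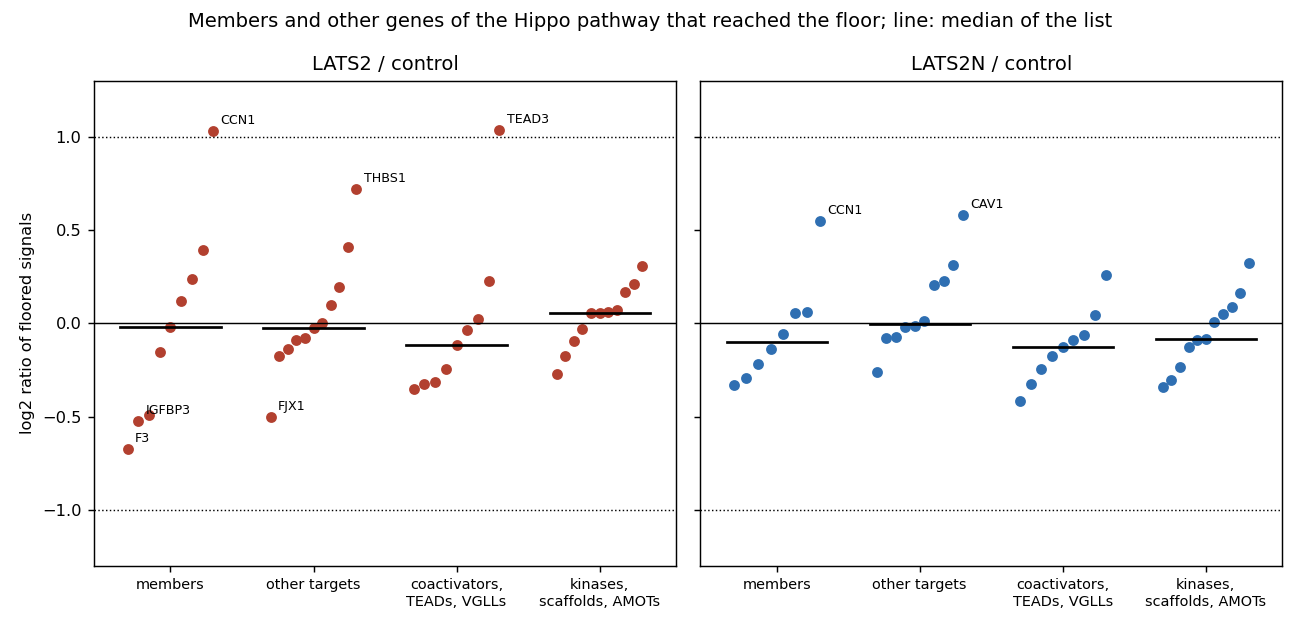
Log2 ratios of floored signals for LATS2 / control and LATS2N / control, for members and for other listed genes of the pathway that reached the floor; each point is a gene, the black line is the list median and dotted lines mark 2-fold. CCN1 and TEAD3 pass the upper line on the LATS2 array and no gene does on the LATS2N array.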

How the data were processed

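Total RNA was labelled and hybridised per the labels' protocols. The deposited values are linear probe set intensities from MAS5, a tool named in the submitters' processing notes, whose version and settings are not given in the sources used here. The values show that each array was scaled to a mean of 500.1 after leaving out 2% at each end. The precision is limited by the number of arrays, with no replicates.

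Symbols were updated through gene identifiers to the RefSeq table of GRCh38.p14. From the intensities, log2 ratios, 2-fold size calls and the spread between probe sets were computed with Python 3.11.15, numpy 2.4.6 and pandas 2.3.3. Spread estimate and call were tested on simulated data. The members and lists were chosen with earlier results of these data known. Named genes are all members, listed genes called or reading 500 or more, and the 3 genes nearest to the member of the largest ratio. THBS1, WWTR1, FOS, CCN3, IGFBP2, IGFBP4, TYRO3, PECAM1, DCN and genes given only as below the floor fall outside this rule. They were picked with their values known. LATS2, named as the overexpressed gene, also falls outside the rule. The 8 alternatives were other floors, probe set choices, scalings and a 1.5-fold call; 1 more was added after seeing the data, a call at 2 SDs between probe sets.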

Additional observations from a re-analysis of the deposited data

How the results depend on the processing

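No replicate could be left out, since each group has 1 array, and no paired analysis was possible because no group has more than 1 sample. Over the alternatives the members' median log2 ratio lay between -0.15 and 0.05 for LATS2 against control, between -0.29 and -0.02 for LATS2N against control and between -0.08 and 0.15 for LATS2 against LATS2N. Of 161 single ratios under alternatives, 151 moved by less than 1 SD between probe sets, and 10 moved further. Many of the 161 could not move. A lower floor or none leaves a ratio of signals above the floor unchanged. The median over probe sets leaves the 4 members with 1 probe set unchanged, and centring shifts every ratio of a comparison by the same small amount. The 151 is therefore no measure of how stable the ratios are. CCN1, the only called ratio, kept its sign. Of 26 member ratios, none of them called but CCN1, 5 changed sign: with the median over probe sets, CRIM1 was -0.12 in LATS2 against control and -0.40 in LATS2N against control, and PTPN14 was -0.03 in LATS2 against control; without probe sets of possible shared targets, DOCK5 was 0.03 in LATS2N against control and -0.41 in LATS2 against LATS2N. With the floor at the 75th percentile most members fell below it, so 17 of their ratios could not be given, and with the median over probe sets those of AXL could not, nor IGFBP3 in LATS2 against LATS2N.

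The number of members called higher in LATS2 against control, 1 in the report, was 2 with the floor moved to the 25th percentile (CCN1 and CCN2), 3 with no floor (ANKRD1 too), and 0 with the floor at the 75th, with the median over probe sets and with centred ratios. Over these floors the count of all genes called higher changed in the same direction. It went from 127 to 814 at the 25th percentile, 1712 with no floor and 9 at the 75th. With no floor, 1 member was lower in LATS2N against control and 1 higher in LATS2 against LATS2N, ANKRD1 in each case. At 1.5-fold, 1 member was lower in LATS2 against control. At 2 SDs between probe sets, chosen after seeing the data, 1 member was lower in LATS2 against control, 1 lower in LATS2N against control, and 1 higher and 1 lower in LATS2 against LATS2N.

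All genes called higher and lower, in the order LATS2 against control, LATS2N against control, LATS2 against LATS2N, were 127 and 111, 125 and 75, and 78 and 132 at the report's settings. They were 814 and 949, 871 and 779, and 744 and 979 with the floor at the 25th percentile; 9 and 19, 0 and 1, and 0 and 20 at the 75th percentile; and 1712 and 1999, 1729 and 1769, and 1670 and 1983 with no floor. They were 772 and 582, 644 and 433, and 563 and 668 at 1.5-fold, and 1008 and 692, 1007 and 753, and 987 and 846 at 2 SDs. With the median over probe sets they were 152 and 126, 125 and 101, and 115 and 133. With centred ratios they were 109 and 129, 109 and 87, and 70 and 137. The signal over the floor limits CCN2 and ANKRD1 most. The cause of these shifts was not tested beyond the floors and limits named.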

Other observations

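Relatives of the members were read for comparison. In the CCN family, CCN3 read 60.8 on the LATS2 array, 55.8 on the LATS2N array and 52.0 on the control array, close to the floor, and CCN4, CCN5 and CCN6 were below it throughout. Over the 3 CCN genes that reached the floor, 2 of them the members CCN1 and CCN2, the median log2 ratio of LATS2 against control was 0.40. This is the bound of CCN2 itself, at 0.83 SDs between probe sets. In the insulin-like growth factor binding proteins, IGFBP4 read 336 on the LATS2 array, 446 on the LATS2N array and 478 on the control array, the order of IGFBP3. IGFBP2 went the other way, with 232 on the LATS2 array, 184 on the LATS2N array and 183 on the control array. Its log2 ratio of LATS2 against control was 0.34, at 0.96 SDs between probe sets. IGFBP6 read 6388 on the LATS2 array, 6671 on the LATS2N array and 4447 on the control array, above control with both constructs and past 2 SDs between probe sets in each. The median over 4 such genes was -0.08 for LATS2 against control. Of the receptors related to AXL, TYRO3 read 266 on the LATS2 array, 299 on the LATS2N array and 230.3 on the control array, and MERTK was below the floor throughout. The ligand gene GAS6 read 2826 on the LATS2 array, 2659 on the LATS2N array and 2617 on the control array. The median over 4 genes of that list was 0.04 for LATS2 against control.

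Of 8 AP-1 subunits none was called, and the median log2 ratio was 0.06 for LATS2 and 0.04 for LATS2N against control. FOS, an immediate early gene, read 285 on the LATS2 array, 236 on the LATS2N array and 163 on the control array, the order of CCN1. FOSL1 read 1395 on the LATS2 array, 2110.1 on the LATS2N array and 1550 on the control array, while FOSL2, JUN, JUNB, JUND and ATF3 lay between -0.41 for ATF3 and 0.34 for JUNB in LATS2 against control. The list of SRF and MRTF genes, regulators of actin genes that share targets with YAP, had a median of -0.10 over 9 genes for LATS2 against control, with 1 gene called in each direction. TAGLN, an actin-binding protein, read 75.8 on the LATS2 array, 217 on the LATS2N array and 254 on the control array, 3.35-fold lower than control and 2.86-fold lower than LATS2N on the LATS2 array. ACTA2, smooth muscle actin, read 103 on the LATS2 array, 100.02 on the LATS2N array and 46.7 on the control array. With control set at the floor, it was 2.04-fold above control with LATS2 and 1.98-fold with LATS2N. These are bounds, at 2.15 and 2.10 SDs between probe sets, and not firm minimums. The log2 ratio of LATS2 against LATS2N was 0.04. VCL, TPM1, FHL2 and MRTFB, all above 500, lay between -0.30 for TPM1 and 0.01 for MRTFB in LATS2 against control.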
